A study of Mus musculus with 12 samples.

Results

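The genes described here are Mki67, the gene of the proliferation marker Ki-67, and a set of regulators of the G1 phase of the cell cycle: the D cyclins Ccnd1, Ccnd2 and Ccnd3, the cyclin-dependent kinase Cdk6, the kinase inhibitors Cdkn1a and Cdkn1b, the transcription factor Myc and its antagonist Mxd1. They were taken by symbol from probe sets annotated to that symbol alone, and where a symbol had several such probe sets the one used was chosen by its mean log2 intensity over all 12 arrays, the highest being kept. Of the 9 symbols, 8 were found in this way among 19938 genes with a probe set of their own. Cdkn1a had a single probe set, annotated to 2 symbols, so no value is given for it. The mean over all arrays decided between probe sets for 1 gene, Cdkn1b, at 8.91 against 8.31, and it carries no information on differences between times.

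RNA came from macrophages grown from bone marrow of C3H/HeN mice over 17 days, first with interleukin-3, interleukin-6, stem cell factor and L-cell conditioned medium as a source of M-CSF, and replated on day 16 without that medium for stimulation the next day. Cells were left unstimulated (0 min) or received lipopolysaccharide (LPS), a bacterial cell wall component sensed by Toll-like receptor 4, at 100 ng/ml for 45 or 270 min. In all groups, the unstimulated one included, 4-thiouridine was present at 200 µM for the last 35 min, and RNA that had taken it up was purified from total RNA, which gave nascent RNA. The 6 groups (nascent and total RNA at 3 times) held 2 arrays each (Affymetrix Mouse Gene ST 1.0), 1 from each of 2 independent experiments. The RNA input was 100 ng for nascent and 200 ng for total RNA arrays. The age and sex of the mice were not given in the sources used here.

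Progress through G1 depends on D cyclins, which bind and activate CDK4 and CDK6. These kinases phosphorylate the retinoblastoma protein and so release E2F transcription factors, while inhibitors such as p27 (from Cdkn1b) restrain cyclin-kinase complexes. MYC forms dimers with MAX that activate genes of growth at E-box sequences, and MXD proteins compete for MAX and repress the same sites. Macrophages divide in response to M-CSF, and Ki-67 protein is present in cycling cells and absent from resting ones.

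Across genes, log2 values of the paired experiments correlated within each group at r = 0.9806 to 0.9891. A background level was set on each array at the 95th percentile of 1027 olfactory receptor genes, which lay at 6.18 to 6.80 on the log2 scale. All 8 macrophage markers examined (among them Csf1r, Adgre1 and Cd68) lay above it in all groups, and 0 of 4 measured B cell markers did in any. Of the 8 neutrophil and granulocyte precursor markers 0 were above it in 5 groups and 1 in total RNA at 270 min. Mast cell and basophil markers were present, with 4 of 7 above background in unstimulated total RNA (Cpa3, Mcpt8, Kit and Gata2), and their summed intensity in total RNA was 493.4 and 1522.6 at 0 min, 562.1 and 1877.4 at 45 min, and 755.0 and 1659.2 at 270 min in experiments 1 and 2. Above background in unstimulated total RNA were also 1 of 5 measured T and NK cell, 3 of 5 dendritic cell, 2 of 4 erythroid and megakaryocyte and 3 of 5 stromal markers. In nascent RNA the mast cell and basophil sum was 412.2 and 569.2 at 0 min, 447.5 and 669.4 at 45 min, and 609.8 and 892.2 at 270 min. The erythroid and megakaryocyte sum (Pf4 and Itga2b were its markers above background in unstimulated total RNA) was higher after LPS in both experiments: 269.2 and 289.5, 406.9 and 514.4, and 389.8 and 397.5 in nascent RNA at the 3 times, and 298.2 and 377.1, 349.2 and 457.4, and 542.9 and 682.4 in total RNA. The part of these cells in the results below was not tested. In bulk RNA a change in the number of cells of a type and a change in RNA per cell cannot be told apart.

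Calls are those of limma at a Benjamini-Hochberg adjusted p below 0.05 over all 19938 genes, and differences are log2 differences between group means ± SE with n = 2 per group. After 45 min, 3 of the 8 genes had risen in nascent RNA (Mki67, Myc and Mxd1) and 0 had fallen, where over all genes 8.93% were called, 3.05% as higher and 5.88% as lower. After 270 min, 3 of 8 had risen in that fraction (Ccnd2, Mki67 and Myc) and 0 had fallen, where 23% of all genes were called, 8.87% as higher and 14.2% as lower. In total RNA 1 of 8 rose by 45 min (Mki67) and 0 fell, where 0.682% of all genes were called, 0.662% as higher and 0.0201% as lower. By 270 min 5 of 8 rose in total RNA (Ccnd2, Mki67, Myc, Cdk6 and Mxd1) and 0 fell, where 19% of all genes were called, 7.02% as higher and 12% as lower. From 45 to 270 min, 1 of 8 rose (Ccnd2) and 1 fell (Mki67) in nascent RNA, where 16.8% of all genes were called, 6.74% as higher and 10% as lower. Over the same interval 2 of 8 rose in total RNA (Ccnd2 and Cdk6) and 0 fell, where 18.2% of all genes were called, 6.64% as higher and 11.5% as lower. Since the genes were named with earlier results of these data known, these counts describe them and are no test of the set. The median difference of the 8 genes was 0.19 and 0.59 in nascent RNA at 45 and 270 min, where that of all genes was 0.11 and 0.12, and 0.09 and 1.00 in total RNA, where that of all genes was -0.01 and 0.07.

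**Figure D1:**
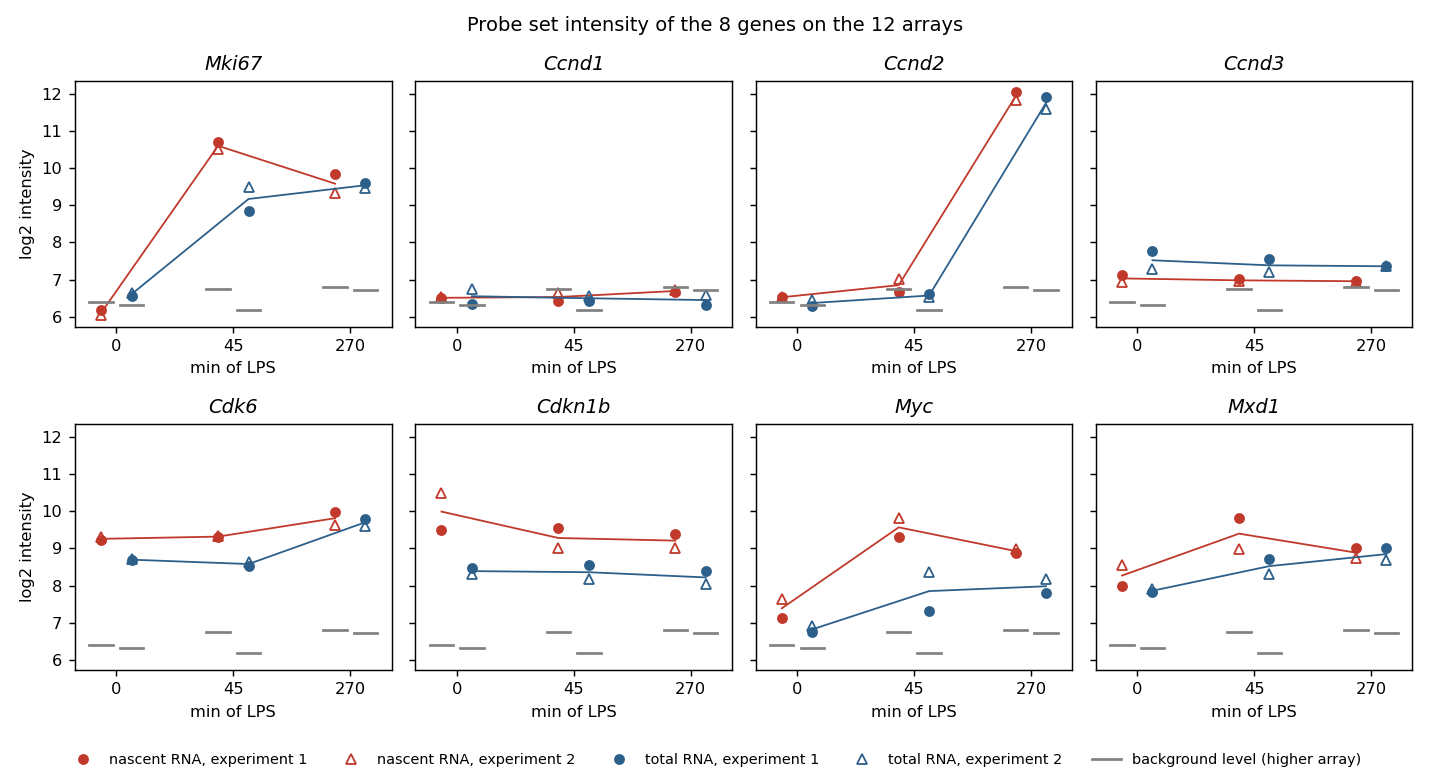
Log2 probe set intensity (vertical axis) of the 8 genes at 0, 45 and 270 min of LPS (horizontal axis, times evenly spaced), with filled circles for experiment 1, open triangles for experiment 2, lines through the means of 2 arrays and grey bars for the higher background level of the 2 arrays. Mki67 is high at 45 and 270 min, Ccnd2 at 270 min alone, and Ccnd1 stays near the grey bars throughout.

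The D cyclins behaved differently from one another. Ccnd2, which encodes cyclin D2, was at 6.52 and 6.53 (experiments 1 and 2) in unstimulated nascent RNA, at 6.68 and 7.03 at 45 min and at 12.04 and 11.82 at 270 min. In total RNA Ccnd2 was at 6.28 and 6.46, then 6.62 and 6.53, then 11.91 and 11.60. The 270 min arrays of either fraction lay far above all others, while the 8 arrays of 0 and 45 min lay 0.04 to 0.43 above the background level of their array. Ccnd2 rose by 5.40 ± 0.21 in nascent RNA from 0 to 270 min, a 42.3-fold difference (adjusted p = 1.12e-09), and by 5.38 ± 0.21 in total RNA, a 41.6-fold difference (adjusted p = 9.34e-10). Almost all of it came after 45 min: the difference from 45 to 270 min was 5.08 ± 0.21 in nascent and 5.18 ± 0.21 in total RNA (adjusted p = 3.5e-09 and 4.19e-09). At 45 min the difference from unstimulated cells was 0.33 (95% interval -0.12 to 0.77) in nascent and 0.20 (-0.24 to 0.64) in total RNA, and neither was called (adjusted p = 0.362 and 1.0). These folds set a bright level against one measured just above background.

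Ccnd1, which encodes cyclin D1, ranged from 6.32 to 6.76 over the 12 arrays and was above background on 8 of them. Its log2 differences from unstimulated cells were 0.02 (-0.36 to 0.41) and 0.19 (-0.20 to 0.57) in nascent RNA at 45 and 270 min and -0.06 (-0.44 to 0.33) and -0.10 (-0.49 to 0.28) in total RNA, and none was called. At these levels the arrays do not show whether Ccnd1 was expressed. Ccnd3, which encodes cyclin D3, was above background on all 12 arrays, at 7.13 and 6.94, 7.01 and 6.96, and 6.97 and 6.95 in nascent RNA at the 3 times, and at 7.76 and 7.29, 7.55 and 7.22, and 7.36 and 7.36 in total RNA. The groups of each fraction overlapped, and the differences from 0 min lay between -0.16 and -0.05, none of them called. The 95% intervals of the Ccnd3 differences reached from -0.58 to 0.37 over both fractions and times, so a change of the size seen for Ccnd2 lay outside them.

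Cdk6, the partner kinase of the D cyclins, stayed level at 45 min and was higher at 270 min. In nascent RNA it was at 9.22 and 9.30, 9.30 and 9.34, and 9.99 and 9.64 at the 3 times, and in total RNA at 8.68 and 8.72, 8.53 and 8.63, and 9.79 and 9.62. Both 270 min arrays lay above all 4 earlier arrays of their fraction. The rise in total RNA from 0 to 270 min was 1.01 ± 0.19, a 2.01-fold difference (adjusted p = 0.00199), and from 45 to 270 min 1.12 ± 0.19 (adjusted p = 0.000946). In nascent RNA the difference from 0 to 270 min was 0.56 ± 0.19 and just missed the threshold (adjusted p = 0.0542). Blocking on the experiment brought it past the threshold (adjusted p = 0.03), and over that result's other alternatives, single arrays left out included, the adjusted p ranged from 0.0211 to 0.32. At 45 min Cdk6 differed from unstimulated cells by 0.06 (-0.36 to 0.48) in nascent and -0.12 (-0.53 to 0.30) in total RNA.

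Cdkn1b, the gene of the kinase inhibitor p27, was not called in any of the 6 comparisons between times. In nascent RNA it was at 9.49 and 10.49 at 0 min, 9.56 and 9.0 at 45 min and 9.40 and 9.02 at 270 min, and in total RNA at 8.48 and 8.31, 8.55 and 8.18, and 8.40 and 8.04. The unstimulated nascent array of experiment 2 stood above the other 5 nascent arrays. The difference in nascent RNA was -0.71 ± 0.31 at 45 min (adjusted p = 0.194) and -0.78 ± 0.31 at 270 min (adjusted p = 0.0894), with 0.08 and -0.09 in experiment 1 against -1.49 and -1.47 in experiment 2. Once experiment 1's unstimulated nascent array was left out, the fall was called at 45 min (-1.21, adjusted p = 0.0236) and at 270 min (-1.28, adjusted p = 0.00898), so these values rest on 1 array. The second probe set of Cdkn1b, with the lower mean, was at 8.50 and 9.12, 8.44 and 9.02, and 8.69 and 9.75 in nascent RNA and at 6.80 and 8.72, 6.97 and 8.33, and 7.09 and 8.25 in total RNA. That second set separated the experiments more than the times and did not share the high unstimulated value. With both averaged, the Cdkn1b difference in nascent RNA was -0.40 ± 0.32 at 45 min and -0.18 ± 0.32 at 270 min.

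Myc rose in nascent RNA at both times and was called in total RNA at 270 min. In nascent RNA it was at 7.15 and 7.64 at 0 min, 9.30 and 9.83 at 45 min and 8.87 and 8.99 at 270 min, so all stimulated arrays lay above the unstimulated ones. Nascent Myc rose by 2.18 ± 0.31 at 45 min, a 4.52-fold difference (adjusted p = 0.000691), with 2.16 and 2.19 in the 2 experiments, and was still higher by 1.54 ± 0.31 at 270 min (adjusted p = 0.0024). From 45 to 270 min it differed by -0.64 ± 0.31 (adjusted p = 0.23, and 0.0489 when blocked on the experiment). In total RNA Myc was at 6.74 and 6.91, 7.33 and 8.38, and 7.79 and 8.18. The 2 arrays at 45 min lay far apart, and the difference from 0 min, 1.03 ± 0.31, was not called (adjusted p = 0.438), but was when blocked on the experiment (adjusted p = 0.0284) and without the 45 min array of experiment 1 (1.56, adjusted p = 0.0372). From 45 to 270 min total Myc differed by 0.13 (-0.54 to 0.80, adjusted p = 0.813). At 270 min it was higher than in unstimulated cells by 1.16 ± 0.31 (adjusted p = 0.0176), a call lost when experiment 1's unstimulated array (1.08, adjusted p = 0.0957) or experiment 2's array at 270 min (0.97, adjusted p = 0.126) was left out.

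Mxd1, which encodes the MYC antagonist MAD1, rose in nascent RNA at 45 min by 1.13 ± 0.29 (adjusted p = 0.0257) and in total RNA at 270 min by 0.99 ± 0.29 (adjusted p = 0.0267). In nascent RNA its values were 7.99 and 8.55, 9.82 and 8.97, and 9.03 and 8.75, and in total RNA 7.82 and 7.91, 8.73 and 8.32, and 9.0 and 8.70. The unstimulated arrays were the lowest of each fraction, with larger differences in experiment 1 (1.83 in nascent RNA at 45 min) than in experiment 2 (0.42). The nascent call was lost when either experiment 1 array was left out, the unstimulated one (adjusted p = 0.137) or that of 45 min (0.70, adjusted p = 0.191) and with arrays centred on their median (1.06, adjusted p = 0.0527). The total RNA call at 270 min was lost when the unstimulated array of either experiment (0.94, adjusted p = 0.12, and 1.03, adjusted p = 0.0812) or experiment 1's array at 270 min (0.83, adjusted p = 0.114) was left out. The difference in total RNA at 45 min was 0.66 ± 0.29 (adjusted p = 1.0), and that in nascent RNA at 270 min 0.62 ± 0.29 (adjusted p = 0.14, and 0.0258 after quantile scaling).

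Mki67, a gene usually read as a marker of cycling cells, had the largest rise of the 8 genes at 45 min in both fractions. In nascent RNA it was at 6.18 and 6.04 at 0 min, with both arrays under the background level, at 10.69 and 10.51 at 45 min and at 9.84 and 9.32 at 270 min. In total RNA it was at 6.57 and 6.66, 8.86 and 9.48, and 9.60 and 9.48. Stimulated and unstimulated arrays did not overlap in either fraction. The nascent difference was 4.49 ± 0.24 at 45 min (at least 19.6-fold against the background level, adjusted p = 7.43e-08) and 3.47 ± 0.24 at 270 min (at least 9.69-fold, adjusted p = 2.03e-07). Total Mki67 rose by 2.56 ± 0.24 at 45 min, a 5.88-fold difference (adjusted p = 4.18e-05), and by 2.93 ± 0.24 at 270 min (adjusted p = 1.56e-06). From 45 to 270 min nascent Mki67 fell by 1.02 ± 0.24 (adjusted p = 0.00857), a call that was lost without the 45 min array of experiment 1 (-0.93, adjusted p = 0.0848) or the 270 min array of experiment 2 (-0.76, adjusted p = 0.138). Total Mki67 differed by 0.37 (-0.15 to 0.89) over that interval (adjusted p = 0.327).

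**Figure D2:**
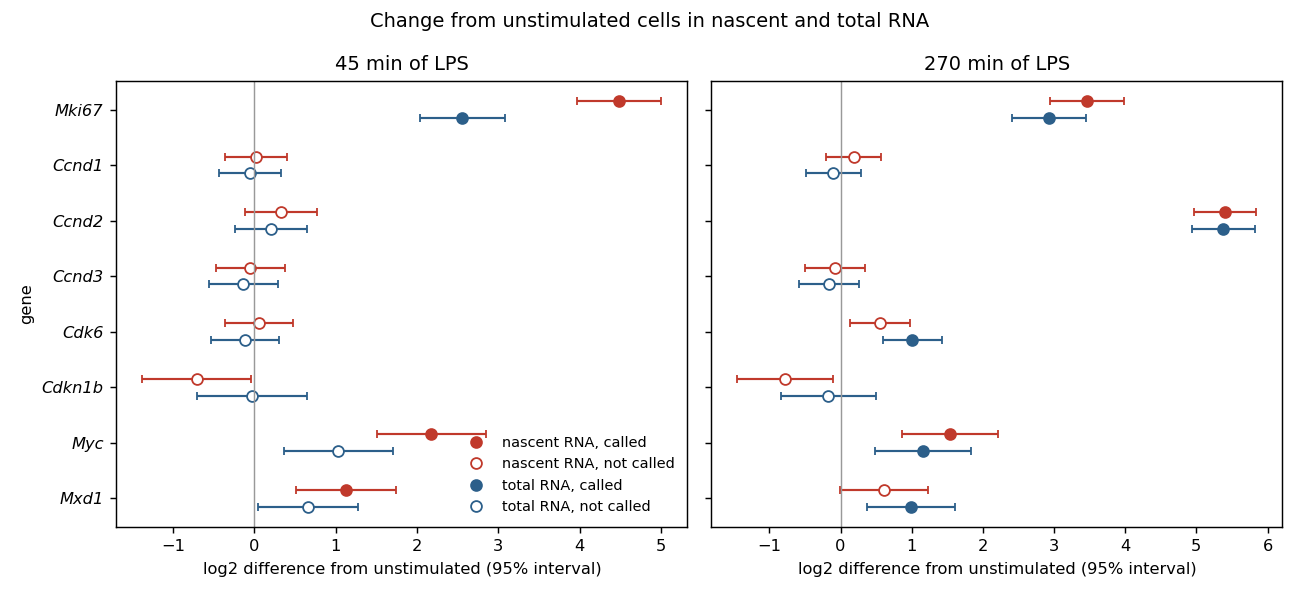
Log2 difference from unstimulated cells (horizontal axis) at 45 min (left) and 270 min (right) for each gene, in nascent (red) and total RNA (blue), with limma's 95% intervals; filled points are called. Mki67 leads at 45 min with 4.49 in nascent and 2.56 in total RNA, and Ccnd2 at 270 min with 5.40 and 5.38.

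Other genes of S phase and mitosis were examined beside Mki67. Of 23 measured genes of this list (among them the topoisomerase Top2a, Pcna, the replicative helicase subunits Mcm2 to Mcm7, Cdk1 and the mitotic kinases Aurka, Aurkb and Plk1), 0 rose and 1 fell by 45 min in nascent RNA, where 3.05% of all genes were higher and 5.88% lower. In total RNA 0 rose and 0 fell, where 0.662% of all genes were higher and 0.0201% lower, a share at which few of 23 would be called. At an unadjusted p below 0.05 limma gave 2 higher and 3 lower in nascent RNA and 0 in total RNA, and when blocked on the experiment, after adjustment, 1 higher and 2 lower in nascent RNA and 0 in total RNA. Blocked, 4.23% of all genes were higher in nascent RNA at 45 min, and 1838 of 19938 lower. The gene that fell was the helicase subunit Mcm7 (-1.31 ± 0.25, adjusted p = 0.00568). The list's median difference at 45 min was 0.04 in nascent RNA, where that of all genes was 0.11, and 0.08 in total RNA, where that of all genes was -0.01. Many of these genes were dim: 10 of the 23 had their brighter group above background on both arrays in the nascent comparison and 18 in the total one. At 270 min 1 of 23 rose in nascent RNA, the thymidylate synthase gene Tyms (1.38 ± 0.17, adjusted p = 4.45e-05), and 4 fell, including Mcm7 (-1.33 ± 0.25) and Mcm3 (-1.09 ± 0.29, at least 1.68-fold lower). In total RNA at 270 min Tyms again was the 1 gene that rose (0.87 ± 0.17) and 5 fell. For comparison, limma called 8.87% of the whole gene set as rising by then in the nascent fraction, with 14.2% falling. The total fraction had shares of 7.02% rising and 12% falling.

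Promoter sequence was looked up for the genes that changed with LPS. Of the 8 measured genes, 5 had an entry in the RefSeq promoter table (build GRCm38.p6). Those of the 3 that were called between times are shown, since Mki67 and Mxd1 rose together at 45 min in nascent RNA and Cdk6 later. Each is the 250 bases before the annotated start site, 5′ to 3′ on the gene's strand, and capitals mark matches on either strand to CCAAT, to TTTGAA (the core of the cell cycle homology region, CHR, of late cell cycle genes), to the E-box CACGTG or to TATAAA. The Mki67 window is chr7:135716380-135716629 (minus strand), that of Mxd1 chr6:86669160-86669409 (minus strand) and that of Cdk6 chr5:3343643-3343892 (plus strand).
Mki67: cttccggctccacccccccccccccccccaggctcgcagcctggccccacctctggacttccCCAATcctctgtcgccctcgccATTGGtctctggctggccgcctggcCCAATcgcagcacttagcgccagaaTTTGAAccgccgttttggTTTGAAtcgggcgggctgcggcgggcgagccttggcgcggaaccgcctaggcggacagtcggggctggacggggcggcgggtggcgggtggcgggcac
Mxd1: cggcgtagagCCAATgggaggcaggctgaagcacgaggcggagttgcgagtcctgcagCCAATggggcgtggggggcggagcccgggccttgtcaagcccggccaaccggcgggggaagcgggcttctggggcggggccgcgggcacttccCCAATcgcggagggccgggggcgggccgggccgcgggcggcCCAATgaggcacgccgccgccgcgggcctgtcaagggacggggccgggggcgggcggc
Cdk6: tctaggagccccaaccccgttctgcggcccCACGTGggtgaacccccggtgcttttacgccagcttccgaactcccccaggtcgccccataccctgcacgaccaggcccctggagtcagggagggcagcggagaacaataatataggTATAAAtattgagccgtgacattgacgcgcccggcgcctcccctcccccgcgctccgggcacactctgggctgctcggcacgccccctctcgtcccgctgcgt
The Mki67 window held 3 matches to CCAAT and 2 to TTTGAA, that of Mxd1 4 to CCAAT, and that of Cdk6 1 to CACGTG and 1 to TATAAA. Matches to CCAAT were also found in genes not called between times: 2 in the Cdkn1b window, and 0 and 1 in the 2 windows of Ccnd3. Of 32851 promoter windows of this length, 33.8% held CCAAT, 16.0% TTTGAA, 6.02% CACGTG and 12.4% TATAAA. The AP-1 letters TGANTCA (6.75% of windows), the CRE letters TGACGTCA (1.55%) and the NF-kB consensus (7.25%) had 0 matches in these 3 windows, which says no more than that these letters are absent there. The motifs do not overlap one another, and a match is a description of the sequence and not a measured binding site.

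Nascent and total RNA of the same culture were compared next, as the nascent minus the total log2 value, to see how far each gene's response in newly made RNA differed from that in the pool. These differences are relative to the other genes of the arrays and not amounts per cell. For Mki67 they were -0.38 and -0.62 at 0 min, 1.83 and 1.03 at 45 min and 0.24 and -0.15 at 270 min. The 45 min cultures lay above the others in both experiments. The nascent response of Mki67 at 45 min exceeded the total response by 1.93 ± 0.32 (adjusted p = 0.00682), 1 of the 8 genes called, where 1.04% of all genes were, 0.476% as higher and 0.567% as lower. Since both unstimulated nascent arrays lay under background, this size is not exact. With them raised to their background level and total RNA taken as measured, the difference was 1.74, with no test. Unstimulated total Mki67 itself lay close to background (6.57 and 6.66 against 6.24 and 6.32), so 1.74 is not a strict lower bound. By 270 min the 2 responses of Mki67 differed by 0.54 (-0.14 to 1.22, adjusted p = 0.877). At that time limma called 0 of the 8 genes, with 0 also at an unadjusted p below 0.05 and 95% intervals that reached from -1.33 to 1.22 over the 8 genes, where 0.843% of all genes were called, 0.12% as higher and 0.722% as lower. For Mki67, from 45 to 270 min the difference fell by 1.39 ± 0.32 (adjusted p = 0.0202), 1 of 8 called, where 3.2% of all genes were, 1.41% as higher and 1.8% as lower. Neither Mki67 call held without the 45 min culture of experiment 1 (1.53 and -0.98, adjusted p = 0.295 and 0.288) or experiment 2 (2.33 and -1.79, adjusted p = 0.138 and 0.0987), and the later one was also lost without the 270 min culture of experiment 2 (-1.19, adjusted p = 0.272). With the arrays taken as unpaired the adjusted p was 0.0998 and 0.0775.

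For Myc the nascent minus total value was 0.40 and 0.73 at 0 min, 1.97 and 1.45 at 45 min and 1.08 and 0.81 at 270 min, highest at 45 min in both experiments. Its nascent response at 45 min exceeded the total one by 1.15 ± 0.31 (adjusted p = 0.0778), which was called when blocked on the experiment (adjusted p = 0.00376) and without the unstimulated culture of experiment 2 (1.31, adjusted p = 0.0172). Mxd1 had 0.17 and 0.65, then 1.10 and 0.65, then 0.03 and 0.05, and from 45 to 270 min its nascent response differed from the total one by -0.83 ± 0.31 (adjusted p = 0.179, and 0.0474 when blocked on the experiment). Ccnd2 had 0.24 and 0.07, 0.05 and 0.50, and 0.13 and 0.23. At 0 and 45 min its arrays of both fractions lay only 0.04 to 0.43 above background, so differences between fractions could hardly show there. The difference between the 2 responses of Ccnd2 at 270 min was 0.02 with a 95% interval of -0.60 to 0.65, and it rests on these dim baselines.

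**Figure D3:**
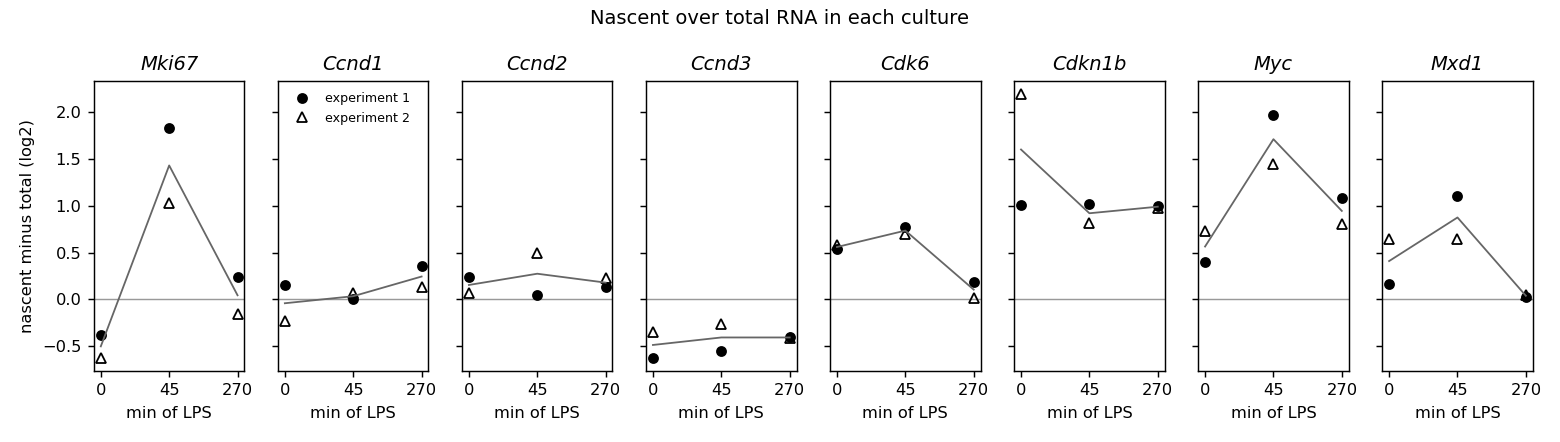
Nascent minus total log2 intensity (vertical axis) in each culture at 0, 45 and 270 min of LPS (horizontal axis, times evenly spaced), with circles for experiment 1, triangles for experiment 2 and lines through their mean. Mki67 and Myc peak at 45 min in both experiments, while Ccnd2 and Ccnd3 change little and Cdkn1b is above 0 in all 6 cultures.

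Within a time, the level of a gene in nascent relative to total RNA was tested on the same culture differences. Nascent arrays had 100 ng of RNA and total arrays 200 ng, so fraction and input amount cannot be told apart here. In unstimulated cells 1 of 8 genes was called, Cdkn1b, which was higher in nascent RNA by 1.60 ± 0.24 (adjusted p = 9.68e-05), where 16% of all genes were called, 7.58% as higher and 8.42% as lower. It was higher in nascent RNA at 45 min (0.92 ± 0.24, adjusted p = 0.00776) and at 270 min (0.99 ± 0.24, adjusted p = 0.00735) too. The single cultures of Cdkn1b gave 1.01 and 2.19, 1.02 and 0.82, and 1.00 and 0.98, and its second probe set gave 1.70 and 0.40, 1.47 and 0.69, and 1.60 and 1.5, above 0 in all 6 cultures for both. At 45 min 5 of 8 genes were higher in nascent RNA (Myc by 1.71 ± 0.22, Mki67 by 1.43 ± 0.23, Cdkn1b, Mxd1 by 0.87 ± 0.22 and Cdk6 by 0.74 ± 0.20), and 0 lower, where 25.4% of all genes were called, 11.2% as higher and 14.2% as lower. At 270 min it was 2 of 8 (Cdkn1b, and Myc by 0.95 ± 0.22), where 15.3% of all genes were called, 6.24% as higher and 9.03% as lower. Without the 45 min culture of experiment 1 the count at 45 min was 1, and 3 without that of experiment 2. At 270 min it was 0 without the culture of experiment 1, 1 without that of experiment 2, and 0 with unpaired arrays. In unstimulated cells 3 genes were called when blocked on the experiment, with Cdk6 (0.56, adjusted p = 0.0223) and Myc (0.57, adjusted p = 0.0316) added. Blocked, 10.1% of all genes were higher there, and 2171 of 19938 lower.

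The other genes of these pathways are given by lists. Of 12 other G1 cyclins, kinases and their partners, 0 rose and 1 fell by 45 min in nascent RNA, and 0 rose and 3 fell by 270 min, where 5.88% and 14.2% of all genes were lower. The gene that fell at both times was Cdk4, the second kinase partner of D cyclins (-1.29 ± 0.35 at 45 min, adjusted p = 0.0375, and -2.30 ± 0.35 at 270 min, adjusted p = 0.000279). Blocked on the experiment, 3 of the 12 were lower at 45 min, where 1838 of 19938 genes were, against 1172 unblocked. In total RNA at 270 min 4 of 12 fell and 0 rose, where 12% of all genes were lower and 7.02% higher. The falls were led by Cdk4 (-1.56 ± 0.35, adjusted p = 0.00628), Ccnh, the cyclin of the CDK-activating kinase (-1.25 ± 0.29), and Cdk2, the kinase partner of cyclin E (-1.14 ± 0.26). Cdk4 and Cdk6, which serve the same cyclins, thus changed in opposite directions in total RNA, by -1.56 and 1.01. Of 6 other kinase inhibitor genes limma called 0 at 45 min in either fraction, also when blocked on the experiment (1 lower in nascent RNA at an unadjusted p below 0.05). At 270 min Cdkn2c, which encodes p18, was the 1 called in either fraction, where 14.2% of all genes were lower in nascent and 12% in total RNA. It fell in nascent RNA (-0.82 ± 0.22, adjusted p = 0.0145, at least 1.03-fold lower) and in total RNA (-0.81 ± 0.22, at least 1.23-fold lower). Total Cdkn2c was also lower at 270 than at 45 min (-1.0 ± 0.22).

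Among 17 genes of the retinoblastoma and E2F group, 1 rose and 1 fell by 45 min in nascent RNA, where 3.05% of all genes were higher and 5.88% lower. The repressive factor E2f8 rose by 1.92 ± 0.22 (adjusted p = 9.19e-05) and E2f6 fell by 1.18 ± 0.24 (adjusted p = 0.0077). By 270 min nascent RNA had 4 higher and 5 lower, where 8.87% of all genes were higher and 14.2% lower, and total RNA 3 higher and 4 lower, where 7.02% and 12% were. Rbl1, which encodes the retinoblastoma relative p107, rose by 3.13 ± 0.22 in nascent RNA (adjusted p = 2.24e-07) and 2.32 ± 0.22 in total RNA. E2f8 was higher by 2.16 ± 0.22 and 2.07 ± 0.22 at that time, and Tfdp2, a dimer partner of E2F factors, lower by at least 1.84- and 2.62-fold. Rb1 itself was lower by 1.99 ± 0.23 in nascent RNA from 45 to 270 min (a difference of -1.99, adjusted p = 2.69e-05).

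In the network around MYC and MAX, 0 of 12 other genes were higher and 1 lower in nascent RNA by 45 min (3 lower when blocked on the experiment). By 270 min 2 were higher and 4 lower. Over all genes 3.05% were higher and 5.88% lower at 45 min, and 8.87% and 14.2% at 270 min. Blocked, 1838 of 19938 genes were lower at 45 min, against 1172 unblocked. The MYC antagonists Mxd4 (-1.64 ± 0.28, adjusted p = 0.000701) and Mnt (-1.33 ± 0.22, adjusted p = 0.000549) fell in nascent RNA at 270 min, where Mxd1 differed by 0.62 and was not called, and Mycl, a MYC relative, rose by 1.10 ± 0.18. In total RNA at 270 min the values were -1.78 ± 0.28 for Mxd4, -1.22 ± 0.22 for Mnt and 1.23 ± 0.18 for Mycl (at least 2.12-fold). From 45 to 270 min Max rose by 1.57 ± 0.23 in nascent and 1.38 ± 0.23 in total RNA. Of 18 known MYC target genes 2 rose and 3 fell by 45 min in nascent RNA, where 3.05% of all genes were higher and 5.88% lower. By 270 min 2 rose and 5 fell, where 8.87% of all genes were higher and 14.2% lower. The list medians were -0.14 and -0.34 at the 2 times, where those of all genes were 0.11 and 0.12. Odc1, the ornithine decarboxylase, rose by 2.55 ± 0.27 at 45 min (adjusted p = 5.15e-05), and the ribosome assembly factor Rrs1 by 2.17 ± 0.54 at 270 min (adjusted p = 0.00991). The spermidine synthase Srm fell at both times (-1.31 ± 0.27 and -1.21 ± 0.27). In total RNA limma called 0 of the 18 at 45 min (1 at an unadjusted p below 0.05, and 0 when blocked on the experiment). At 270 min 2 rose and 1 fell in total RNA. Over all genes 0.662% were higher and 0.0201% lower in total RNA at 45 min, and 7.02% and 12% at 270 min.

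A list of 22 measured genes that control the turnover or levels of D cyclins, p21, p27 and MYC held 3 that rose and 1 that fell in nascent RNA at 45 min, where 3.05% of all genes were higher and 5.88% lower. Blocked on the experiment there were 5 and 2, where 4.23% of all genes were higher and 1838 of 19938 lower. The 3 unblocked rises were of the antiproliferative factor Btg2 (2.93 ± 0.31, adjusted p = 5.59e-05), the atypical cyclin Ccng2 (1.23 ± 0.26) and the transcription factor Klf4 (0.95 ± 0.26). In total RNA at 45 min Btg2 was the 1 called (3.07 ± 0.31, adjusted p = 8.32e-05), against 4 when blocked on the experiment. Over all genes 0.662% were higher and 0.0201% lower there, and 0.908% were higher when blocked. At 270 min 1 rose and 6 fell in nascent RNA, where 8.87% of all genes were higher and 14.2% lower. The largest fall was that of Gadd45g (-3.78 ± 0.79, adjusted p = 0.00288), with -2.49 and -5.07 in experiments 1 and 2. Skp2, the ubiquitin ligase subunit that marks p27 for degradation, fell by 2.03 ± 0.19 (adjusted p = 3.56e-06). Foxo3, an activator of Cdkn1b, fell by 2.53 ± 0.26 (adjusted p = 7.16e-06). Foxo3 was lower by 2.13 ± 0.26 in total RNA too (a difference of -2.13, adjusted p = 4.82e-05). Relative to total RNA, 9 of the 22 were higher in nascent RNA of unstimulated cells and 0 lower, where 7.58% of all genes were higher and 8.42% lower.

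**Figure D4:**
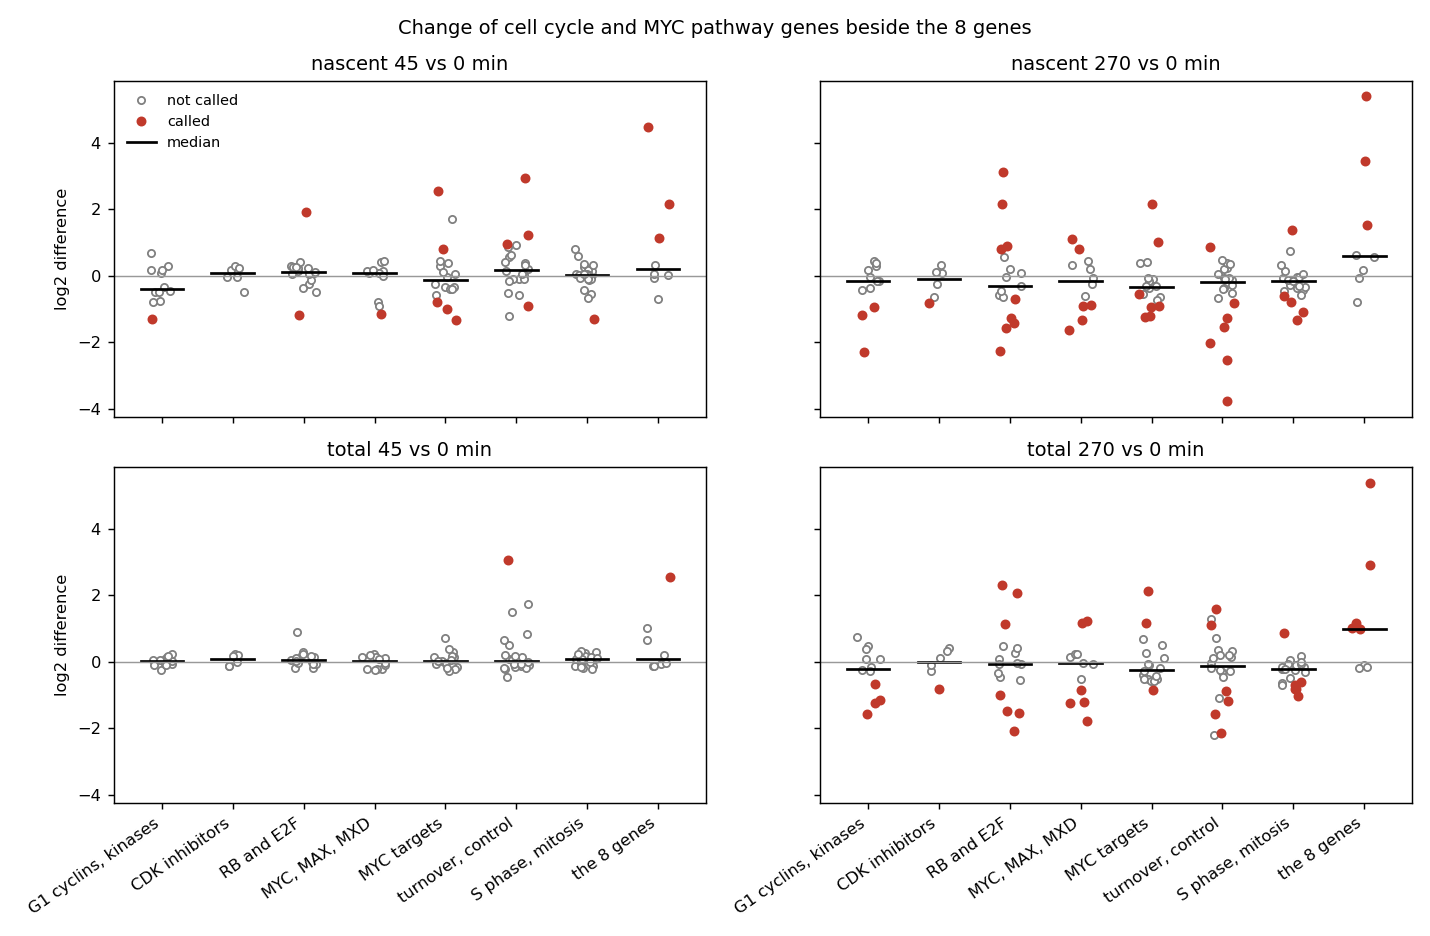
Log2 differences from unstimulated cells (vertical axis) for each gene of the 7 lists and for the 8 genes (horizontal axis), in nascent (top) and total RNA (bottom) at 45 min (left) and 270 min (right). Red points are called, open points are not, and bars mark medians; at 45 min the S phase and mitosis list shows 0 higher calls in either fraction beside 4.49 and 2.56 for Mki67.

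The genes with the most similar pattern were found by Pearson's r over the 12 arrays after centring each fraction on its own mean, among genes above background in at least 1 group. These arrays come from 6 cultures at 3 times, so r describes a shared pattern over the arrays and nothing more. Mki67 was most like the chemokine gene Ccl2 (r = 0.998), Il17ra (0.988) and Gm6377 (0.983). Ccnd2 was most like Tnc (0.999), Sntb1 (0.998) and Il12a (0.997), and Cdk6 like A630072M18Rik (0.981), Stau1 (0.979) and Lcn2 (0.974). Myc was nearest to Samsn1 (0.977), Sema6d (0.974) and Trim13 (0.973), and Mxd1 to Cdc42ep2 (0.956), Nfkbib (0.954) and Slc25a25 (0.954). Cdkn1b, called between fractions and not between times, was nearest to Zc3h10 (0.959), Xab2 (0.957) and Tbcc (0.955). Its unstimulated nascent array of experiment 2 (10.49) stood above the other nascent arrays (9.0 to 9.56), so these r need not describe a time course.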

How the data were processed

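The deposited values are probe set intensities on a linear scale, which the submitters' processing notes say the authors made with RMA in Expression Console. Neither its version nor whether RMA ran on the 12 arrays jointly is given in the sources used here. The interquartile range of log2 values over genes ran from 2.24 to 3.02 between arrays, so the deposited values do not share 1 distribution. Among nascent arrays it was widest on the unstimulated array of experiment 2 (3.00), which also had the lowest background level of that fraction (6.19). RMA compresses the changes of dim genes. No detection calls were used, and the number of arrays limits the precision. Log2 was taken, and of 35557 probe sets 21789 had 1 gene symbol, 1621 several and 12147 no entry in the platform annotation. Identifiers of 21698 were found in the RefSeq gene table (GRCm38.p6, used for names), which changed 0 symbols.

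In R 4.3.3 with limma 3.58.1, the 12 arrays were fitted with 6 group means (6 residual degrees of freedom), and the nascent minus total values of the 6 cultures with time means (3 residual degrees of freedom), both with an intensity trend. Where the dimmer group lay under the background level on both arrays, the fold is a lower bound: the brighter mean was set against the dim arrays' mean, each array raised to its background level where below it. Comparisons of 45 and 270 min share the unstimulated arrays. Labels number the independent experiments, and arrays with equal numbers were taken as pairs. The deviations of same-numbered arrays from their group means correlated at -0.295 to 0.645 over 15 pairs of groups, above 0.1 in 10. All pairs at or below 0.1 included unstimulated nascent RNA (-0.295 to 0.0246, and -0.0549 with unstimulated total RNA). Pairs without it lay at 0.175 to 0.645. For unstimulated nascent RNA these correlations thus do not bear out the pairing by number. The fits were tested on simulated data with 200 changed genes. Python 3.11.15 with pandas 2.3.3 and matplotlib 3.10.9 made tables and figures.

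The genes and lists were chosen with earlier results of these data known. Named are all 8 genes, up to 3 called genes per list and comparison with the largest difference whose brighter group was above background, and the 3 genes most like each called gene. Alternatives were the experiment as a block, other scalings, probe sets, filters, priors and pseudocounts, and single arrays or cultures left out.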

Additional observations from a re-analysis of the deposited data

Results flagged for a closer look

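For Mki67 the responses in nascent and total RNA differed by a test of the difference itself on the culture pairs. The nascent response at 45 min of LPS exceeded the total one by 1.93 as measured. The difference was 1.74 with the unstimulated nascent arrays, which lay under background, raised to their background level and total RNA as measured. Unstimulated total Mki67 was itself close to background, so neither size is exact. From 45 to 270 min the nascent response was lower than the total one (-1.39). Neither call held without the 45 min culture of experiment 1 (adjusted p = 0.295 and 0.288) or experiment 2 (adjusted p = 0.138 and 0.0987) or with unpaired arrays (adjusted p = 0.0998 and 0.0775), and the difference at 270 min against 0 min was not called (adjusted p = 0.877).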

How the results depend on the processing

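The 8 genes gave 96 values, of which 26 were called, and 1632 alternative values. Of these 1580 stayed on the same side of the threshold, 31 lost a call, 21 gained one and 0 reversed a called value; 60 sign changes were of differences called in neither setting. The experiment as a replicate block raised the number of genes called from 1 to 2 in total RNA at 45 min, from 1 to 2 for the nascent minus total response at 45 min and from 45 to 270 min, and from 1 to 3 for nascent over total RNA at 0 min, and it did not change the other counts by more than 1.5 times; beyond the blocked values given beside the results it changed no other call of the 8 genes. Blocking raised the calls over all genes too: from 132 higher and 4 lower to 181 and 17 in total RNA at 45 min. For the nascent minus total response at 45 min it raised them from 95 and 113 to 289 and 816. Quantile scaling gave 5 genes in nascent RNA at 270 min in place of 3. Leaving out dim genes or the intensity trend gave 2 for nascent over total RNA at 0 min. With unpaired arrays 0 genes were called for the nascent minus total response at 45 min and from 45 to 270 min and for nascent over total RNA at 270 min, and with arrays centred on their median 0 from 45 to 270 min. Leaving out single arrays gave 1 to 2 genes for nascent RNA from 45 to 270 min and for total RNA at 45 min, and 3 to 5 for total RNA at 270 min. Leaving out single cultures gave 0 to 2 for the nascent minus total response at 45 min and from 45 to 270 min, 0 to 1 for that at 270 min, and for nascent over total RNA 1 to 5 at 45 min and 0 to 2 at 270 min; the lone culture of a time is then assumed to vary like the others. Of all genes called for the nascent minus total response at 45 min, 45.7% were higher, against 73.7% after quantile scaling and 35.2% with centred arrays, and for nascent over total RNA at 45 min 44.0% against 33.9% with centred arrays. The median of all genes was 0.11 and 0.12 in nascent RNA at 45 and 270 min, and 0.017 and 0.029 after quantile scaling. Mki67 in unstimulated nascent RNA lay under background, so only a bound is known there, and Ccnd1 throughout and Ccnd2 before 270 min lay close to it, where a change may go undetected.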
